A study of Saccharomyces cerevisiae with 4 samples.

Results

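The genes described here are the 37 rows of the array table that stand for aminoacyl-tRNA synthetases of budding yeast (Saccharomyces cerevisiae) and their close relatives, out of 6207 gene rows. They were chosen by locus tag. The first 23 encode enzymes of the cytosol, or enzymes that serve the cytosol and the mitochondrion from 1 gene, together with the cofactor gene ARC1 and the paralog GRS2. The other 14 encode enzymes of the mitochondrion. The series compared cells lacking LOC1, labelled strain PSY3262, with wild-type cells, labelled PSY3259, on 4 microarrays of 2 colours, each holding 1 knockout and 1 wild-type culture. Per the labels these were 4 biological replicates, 2 with the knockout in Cy5 (arrays 1 and 4) and 2 with the knockout in Cy3 (arrays 2 and 3). Cultures of 50 mL grew in the rich medium YPD at 30 °C to an optical density of 0.2 to 0.4. How the deletion was made and how many clones were used is not stated in the labels, so 1 clone per strain may stand behind all arrays. The wild-type channel of array 4 carries the strain tag of the knockout, while its source text names wild type, which was followed.

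An aminoacyl-tRNA synthetase joins an amino acid to the tRNA that reads its codons, and the ribosome then takes the charged tRNA from an elongation factor. Yeast has a cytosolic or shared enzyme for each of 20 amino acids, and the enzymes fall into class I and class II by the fold of their catalytic domain. Yeast mitochondria translate a few proteins of their own, with enzymes that are encoded in the nucleus and imported. For some amino acids a single nuclear gene makes the enzyme of both compartments, and for others the compartments have separate genes. LOC1 encodes a nuclear RNA-binding protein of large-subunit ribosome assembly and of ASH1 mRNA localization.

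Every value below is a log ratio of knockout over wild type in the units of the deposited table. The labels do not state the base of the logarithm, and folds are given as they would be in base 10. Values end exactly at a size of 2, which stands for 100-fold if the base is 10 and 4-fold if it is 2, and base 10 was taken from this alone. A gene "fell" or "rose" where its mean over the 4 arrays had an adjusted p under 0.05 in limma, with Benjamini-Hochberg adjustment over all 6205 genes tested. The direction is likely rather than settled. Arrays 1 and 4, which share 1 dye orientation, ran opposite to each other across 6178 genes (r = -0.773), as did arrays 2 and 3 (r = -0.712), so the dye labels do not order the arrays. Arrays 2 and 4 were turned so that LOC1 lay below 0 on each array, where it had -1.20, -0.972, -1.07 and -1.31 on arrays 1 to 4. Its sign was set by this turning, and the labels do not say whether its probe lies in the deleted part. With the sign turned, each fall below becomes a rise: 11 of the 23 cytosolic or shared genes and 8 of the 14 mitochondrial genes would be higher and 0 lower, with medians of 0.0707 and 0.0872. The arrays measure each mRNA in a whole culture, so fewer cells with a transcript and less of it per cell cannot be told apart.

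Synthetase genes were lower or near 0 in cells lacking LOC1, and none rose. Of the 37 genes 19 fell, 0 rose and 18 did not pass. Of all genes tested 21.7% fell and 22.5% rose, and 44.2% passed in either direction. The cytosolic or shared group had 11 of 23 fallen (47.8%) and the mitochondrial group had 8 of 14 fallen (57.1%). The median log ratio was -0.0707 for the cytosolic or shared genes and -0.0872 for the mitochondrial genes (1.18-fold and 1.22-fold lower if base 10), against 0.0019 for all genes tested. The changes were small, with a median size of 0.0871 over the 37 genes against 0.0679 over all genes tested. The median SD between arrays over all genes was 0.0505. With any 1 replicate left out, 11 of the 19 kept their call. On arrays 1 and 2 alone 6 cytosolic or shared and 0 mitochondrial genes fell, against 8.93% of all genes, and on arrays 3 and 4 alone 15 and 12 fell, against 24.5%. Lists are described by counts and medians only, and no test of a list was made.

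**Figure D1:**
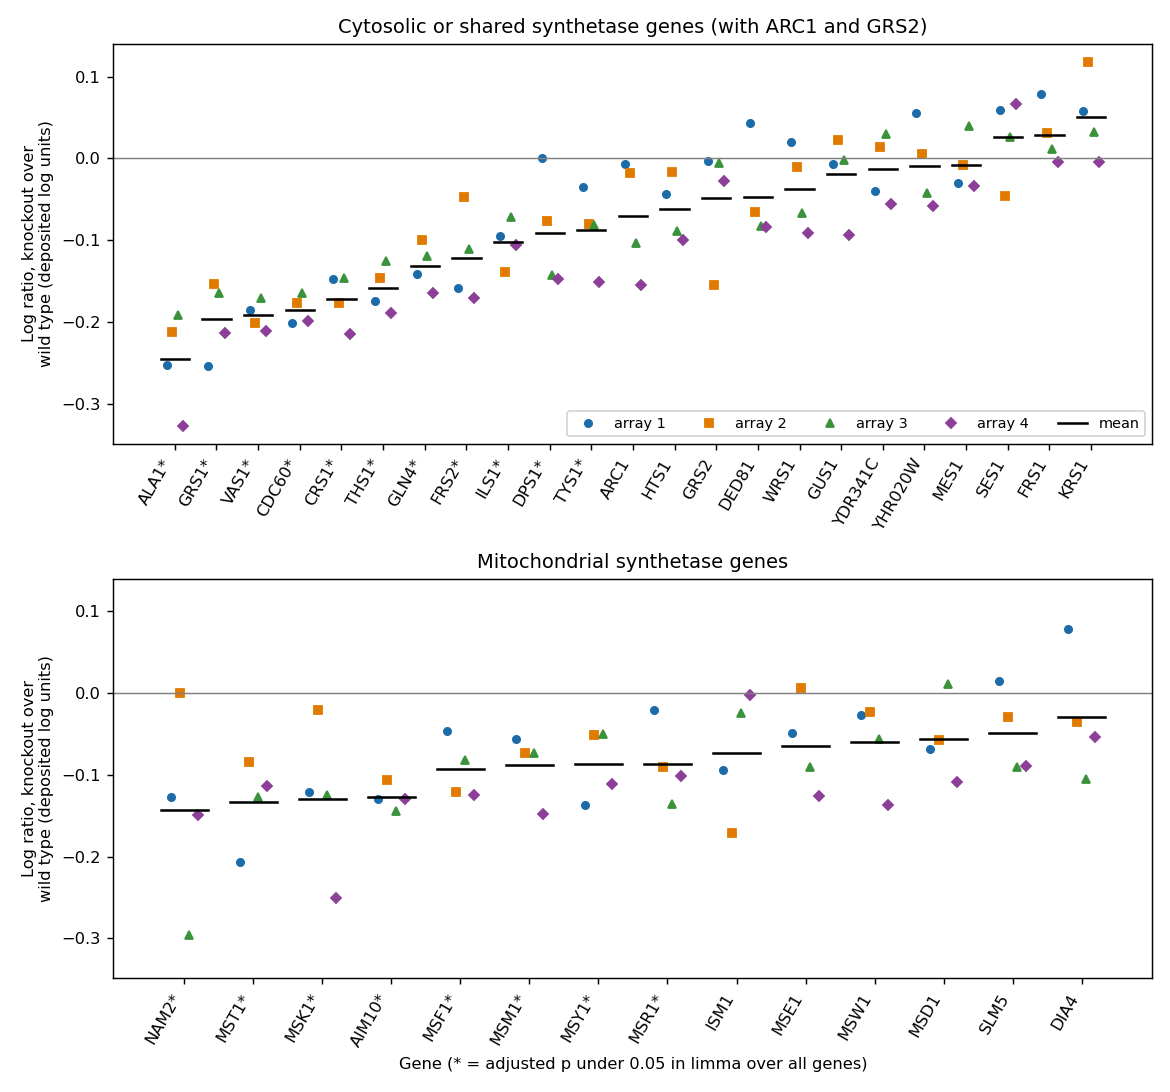
Log ratio of each synthetase gene on each of the 4 arrays (vertical axis, knockout over wild type in deposited log units), with the mean of the arrays as a bar and genes ordered by their mean; a star marks an adjusted p under 0.05 in limma over all genes. The cytosolic or shared genes run from -0.246 for ALA1 to 0.0512 for KRS1, while the mitochondrial genes lie between -0.143 and -0.0292.

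On each array most synthetase genes lay below 0. Among the 23 cytosolic or shared genes, 16, 18, 18 and 22 were below 0 on arrays 1 to 4, with array medians of -0.0353, -0.0660, -0.0822 and -0.106. Among the 14 mitochondrial genes, 12, 13, 13 and 14 were below 0, with array medians of -0.0623, -0.0542, -0.0902 and -0.119. Over all genes tested the array medians were 0.00697, 0.0107, 0.00125 and -0.0119. Array 4 was the lowest for both groups and for the table as a whole, and without it 9 cytosolic or shared and 2 mitochondrial genes fell, against 15.7% of all genes. Below 0 on all 4 arrays were 13 of the cytosolic or shared and 10 of the mitochondrial genes, against 28% of all genes tested, and above 0 on all 4 were 0 of the 37, against 28.5%.

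**Figure D2:**
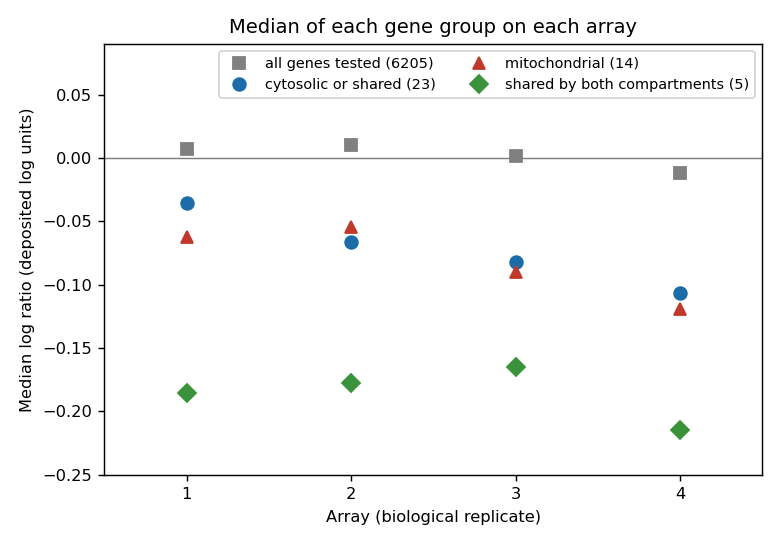
Median log ratio (vertical axis, deposited log units) of each gene group on each array (horizontal axis), with all genes tested for comparison and the number of genes in brackets. Both compartments lie below the median of all genes on each array, and the 5 shared genes lie lowest, between -0.214 and -0.165.

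By mean, the 3 deepest falls were in genes that serve both compartments. CDC60, classed as cytosol-only, came next at -0.186, and its values overlapped those of GRS1 and VAS1. In yeast ALA1, GRS1, HTS1 and VAS1 each make a cytosolic and a mitochondrial form of their enzyme, and CRS1 also supplies both. ALA1 (YOR335C), for alanine, had -0.253, -0.212, -0.191 and -0.327 on arrays 1 to 4. It was the lowest of the 37 genes on arrays 2 and 4, while GRS1 was lower on array 1 and NAM2 on array 3. Its mean of -0.246 ± 0.0599 (SD, n = 4, 1.76-fold lower if base 10) was the lowest of the 37, with adjusted p = 0.00049 in limma. GRS1 (YBR121C), for glycine, had -0.254, -0.153, -0.165 and -0.214, with a mean of -0.197 ± 0.0467 and adjusted p = 0.00084. Its values overlapped those of ALA1 and of VAS1. VAS1 (YGR094W), for valine, had -0.185, -0.202, -0.171 and -0.211, a narrow range with a mean of -0.192 ± 0.0178 and adjusted p = 0.00048. CRS1 (YNL247W), for cysteine, had -0.148, -0.177, -0.146 and -0.215, with a mean of -0.172 ± 0.0322 and adjusted p = 0.00099. HTS1 (YPR033C), for histidine, was nearer 0, with -0.0437, -0.0165, -0.0889 and -0.100. Its mean of -0.0624 (95% interval -0.118 to -0.00643) did not pass, at adjusted p = 0.0681 in limma. It did pass with each array centred on its median, at adjusted p = 0.0494, and without replicate 2, at adjusted p = 0.0481.

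In all, 4 of these 5 genes fell, with a median of -0.192. Of the 16 genes classed here as cytosol-only, 7 fell, with a median of -0.0421. This classing was not tested, and some of these enzymes may also enter the mitochondrion. Among all genes tested 21.7% fell. On arrays 1 to 4 the median of the shared genes minus that of the cytosol-only genes was -0.167, -0.131, -0.0951 and -0.122, on each array in the same direction. The groups rest on few genes, this comparison was not set out beforehand, and the difference was not tested.

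Among the genes classed here as cytosol-only, CDC60, THS1 and GLN4 fell most. CDC60 (YPL160W), for leucine, had -0.202, -0.177, -0.165 and -0.199 on arrays 1 to 4, with a mean of -0.186 ± 0.0176 (SD, n = 4, 1.53-fold lower if base 10) and adjusted p = 0.00055 in limma. THS1 (YIL078W), for threonine, had -0.175, -0.146, -0.125 and -0.189, with a mean of -0.159 ± 0.0287 and adjusted p = 0.0013. Both genes were well below 0 on every array, with no array near it. GLN4 (YOR168W), for glutamine, had -0.141, -0.0998, -0.119 and -0.165, with a mean of -0.131 ± 0.0281 and adjusted p = 0.0029. Yeast mitochondria have no separate glutaminyl enzyme and make their charged glutamine tRNA by converting glutamate on the tRNA. ILS1 (YBL076C), for isoleucine, had -0.0944, -0.139, -0.0722 and -0.106, with a mean of -0.103 ± 0.0277 and adjusted p = 0.0082.

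The other falls of this group were less even between arrays. TYS1 (YGR185C), for tyrosine, had -0.0353, -0.0806, -0.0820 and -0.151, with a mean of -0.0873 ± 0.0478 and adjusted p = 0.0257 in limma. DPS1 (YLL018C), for aspartate, had 0.00092, -0.0762, -0.142 and -0.147, so that array 1 was near 0 while arrays 3 and 4 were low. Its mean was -0.0912 ± 0.0694 with adjusted p = 0.0387, and it did not pass without replicate 2, 3 or 4 (adjusted p = 0.0617, 0.153 and 0.144). TYS1 did not pass without replicate 3 or 4 (adjusted p = 0.0790 and 0.111).

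The genes of the 2 subunits of the cytosolic phenylalanine enzyme stood apart on every array. FRS2 (YFL022C), of the alpha subunit, had -0.158, -0.0467, -0.111 and -0.170 on arrays 1 to 4, with a mean of -0.122 ± 0.0561 (SD, n = 4) and adjusted p = 0.0086 in limma. FRS1 (YLR060W), of the beta subunit, had 0.0787, 0.0308, 0.0109 and -0.00394, with a mean of 0.0291 ± 0.0360 and adjusted p = 0.348. FRS1 was above FRS2 on all 4 arrays, by 0.237, 0.0776, 0.122 and 0.166, or 0.151 ± 0.0679 on average. The enzyme holds the subunits in equal number, and the arrays speak of their mRNAs alone.

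The remaining cytosol-only genes lay near 0 and did not pass. KRS1 (YDR037W), for lysine, was the highest of the 37, with 0.0586, 0.118, 0.0324 and -0.00391 on arrays 1 to 4, a mean of 0.0512 (95% interval -0.00939 to 0.112) and adjusted p = 0.147 in limma. SES1 (YDR023W), for serine, had 0.0597, -0.0466, 0.0262 and 0.0668, with a mean of 0.0265. Neither gene kept 1 sign on all arrays. DED81 (YHR019C), for asparagine, had 0.0430, -0.0660, -0.0822 and -0.0840, so array 1 stood apart from the other arrays. WRS1 (YOL097C), for tryptophan, had a mean of -0.0370, and YHR020W and YDR341C, the cytosolic proline and arginine enzymes, had -0.00977 and -0.0127. For the 12 genes of the cytosolic or shared group that did not pass, the 95% intervals of limma reached from -0.140 at the lowest to 0.112 at the highest. The intervals of HTS1 and ARC1 lay below 0 before adjustment over all genes, and those of the other 10 held 0.

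ARC1 (YGL105W) encodes a protein that binds the methionine and glutamate enzymes, encoded by MES1 and GUS1, and helps them hold their tRNAs. None of the 3 genes passed. ARC1 had -0.00673, -0.0179, -0.104 and -0.154 on arrays 1 to 4, with a mean of -0.0707 ± 0.0706 (SD, n = 4) and adjusted p = 0.0906 in limma. MES1 (YGR264C) had -0.0305, -0.00772, 0.0394 and -0.0332, with a mean of -0.00800 ± 0.0336. GUS1 (YGL245W) had -0.00641, 0.0231, -0.00146 and -0.0932, with a mean of -0.0195 ± 0.0508. ARC1 was low on arrays 3 and 4 and near 0 on arrays 1 and 2, while MES1 lay on both sides of 0.

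GRS2 (YPR081C) is a paralog of GRS1. It had -0.00291, -0.155, -0.00566 and -0.0282 on arrays 1 to 4, with a mean of -0.0479 ± 0.0722 (SD, n = 4) and adjusted p = 0.233 in limma. Array 2 was far below the other arrays, and there GRS2 minus GRS1 was -0.00135. On arrays 1, 3 and 4 GRS2 was above GRS1 by 0.252, 0.159 and 0.186. Probe sequences were not used here, so shared signal between the paralogs was not tested.

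The means of the cytosolic or shared genes ran from -0.246 to 0.0512 and those of the mitochondrial genes from -0.143 to -0.0292. Among the 23 cytosolic or shared genes the SD between gene means was 0.0819. Across these 23 genes the log ratios of any 2 arrays correlated at r = 0.711 to 0.917, with a median of 0.773 over the 6 array pairs. Among the 14 mitochondrial genes the SD between gene means was 0.0350, and r ran from -0.511 to 0.343 with a median of 0.205. For all genes tested r ran from 0.521 to 0.756, with a median of 0.649. The median SD between arrays was alike in the groups, at 0.0478 for cytosolic or shared and 0.0514 for mitochondrial genes. Genes of 1 array share its hybridisation and its normalization, and these correlations are across genes, which are not replicates.

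**Figure D3:**
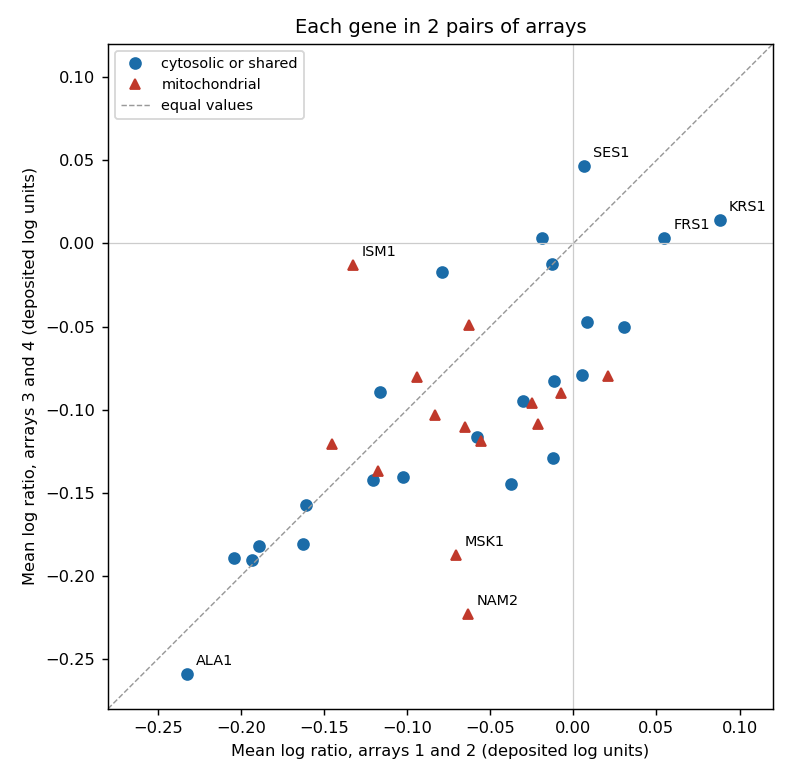
Mean log ratio of each synthetase gene on arrays 3 and 4 (vertical axis) against that on arrays 1 and 2 (horizontal axis), both in deposited log units, with the dashed line where the 2 are equal. Cytosolic or shared genes (circles) run from ALA1 to KRS1, and several lie off the line. ARC1 and DPS1 are at -0.0123 and -0.0377 on arrays 1 and 2 and lower, at -0.129 and -0.145, on arrays 3 and 4. GRS2 goes the other way, from -0.0789 to -0.0169. Mitochondrial genes (triangles) lie below 0 on both axes except DIA4. Among them NAM2 and MSK1 are lower on arrays 3 and 4 and ISM1 on arrays 1 and 2.

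Mitochondrial synthetase genes were below 0 as means in 14 of 14 cases, against 20 of the 23 cytosolic or shared genes. Over all 6205 genes tested, 3059 had a mean below 0. AIM10 (YER087W), annotated for proline, was the most even between arrays, with -0.130, -0.106, -0.144 and -0.129 on arrays 1 to 4, a mean of -0.127 ± 0.0159 (SD, n = 4, 1.34-fold lower if base 10) and adjusted p = 0.0027 in limma. MST1 (YKL194C), for threonine, had -0.206, -0.0843, -0.128 and -0.114, with a mean of -0.133 ± 0.0520 and adjusted p = 0.0052. These were the 2 mitochondrial genes that passed with any 1 replicate left out.

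NAM2 (YLR382C), for leucine, also takes part in splicing of mitochondrial introns in yeast. It had the lowest mitochondrial mean but the widest spread, with -0.127, -0.00026, -0.297 and -0.149 on arrays 1 to 4, a mean of -0.143 ± 0.121 (SD, n = 4) and adjusted p = 0.0271 in limma. Its value was at 0 on array 2 and was lowest on array 3, and it lost its call without replicate 1, 3 or 4 (adjusted p = 0.0787, 0.0969 and 0.0721). MSK1 (YNL073W) encodes the lysine enzyme, whose precursor also helps a cytosolic lysine tRNA enter the yeast mitochondrion. It had -0.121, -0.0201, -0.125 and -0.251, with a mean of -0.129 ± 0.0944 and adjusted p = 0.0204. It too lost its call without replicate 1, 3 or 4 (adjusted p = 0.0660, 0.0610 and 0.0715).

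The other 4 falls were close to each other in size. MSF1 (YPR047W), for phenylalanine, had -0.0458, -0.120, -0.0816 and -0.124 on arrays 1 to 4, with a mean of -0.0931 ± 0.0370 (SD, n = 4) and adjusted p = 0.0152 in limma. MSM1 (YGR171C), for methionine, MSY1 (YPL097W), for tyrosine, and MSR1 (YHR091C), for arginine, had means of -0.0878, -0.0873 and -0.0871, with adjusted p between 0.0210 and 0.0264. Each of the 4 was below 0 on every array, and each lost its call in at least 1 fit that left out a replicate. In all, 5, 8, 3 and 2 mitochondrial genes fell without replicate 1, 2, 3 or 4, against 11, 11, 9 and 9 of the cytosolic or shared genes and 17%, 21%, 15.9% and 15.7% of all genes. Of the 14 mitochondrial genes, the 3 and 2 that fell without replicate 3 or 4 are thus near the share of all genes.

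The 6 mitochondrial genes that did not pass had means between -0.0730 and -0.0292. ISM1 (YPL040C), for isoleucine, had -0.0937, -0.172, -0.0245 and -0.00186 on arrays 1 to 4, lower on arrays 1 and 2, with adjusted p = 0.0937 in limma. MSE1 (YOL033W), for glutamate, MSW1 (YDR268W), for tryptophan, and MSD1 (YPL104W), for aspartate, had -0.0650, -0.0604 and -0.0559, with adjusted p between 0.0866 and 0.115. SLM5 (YCR024C), for asparagine, had -0.0486 and DIA4 (YHR011W), for serine, -0.0292, and both were above 0 on array 1 and below 0 on the others.

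Averaged over the arrays, the difference between the medians of the full groups was smaller than its spread. On arrays 1 to 4 the cytosolic or shared median minus the mitochondrial median was 0.0270, -0.0117, 0.00808 and 0.0127, or 0.00901 ± 0.0160 (SD, n = 4). The medians of the gene means differed by 0.0165, and this changed sign without replicate 1 (-0.00718) or 2 (-0.000972). Without ARC1 and GRS2 it was -4.4e-05. The comparison depends on which cytosolic genes stand for the compartment. For the 15 cytosolic genes with a mitochondrial partner for the same amino acid, 6 fell, against 21.7% of all genes, and the median was -0.0370. The median of the partnered cytosolic genes was above the mitochondrial median by 0.0559, 0.00763, 0.0234 and 0.0278 on arrays 1 to 4 (0.0287 ± 0.0201, SD, n = 4). Pair by pair, the cytosolic gene had the lower mean in 5 of the 15 pairs and the mitochondrial gene in 10. This choice of genes was made after the values were seen, and no test was made.

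Set side by side for each amino acid, 14 amino acids gave 15 pairs of genes, since FRS1 and FRS2 were each set against MSF1. In 4 pairs both genes fell, in 5 only the mitochondrial gene passed, in 2 only the cytosolic gene passed and in 4 neither passed. A call in 1 gene and not in its partner does not show that they differ. The mitochondrial gene was the lower of the pair on all 4 arrays in 5 pairs, and the cytosolic gene in 0 pairs. The widest of these was lysine, where KRS1 was above MSK1 by 0.180, 0.138, 0.157 and 0.247, or 0.180 ± 0.0475 (SD, n = 4). FRS1 was above MSF1 by 0.122 ± 0.0241, YHR020W above AIM10 by 0.118 ± 0.0483, MES1 above MSM1 by 0.0798 ± 0.0423 and GUS1 above MSE1 by 0.0455 ± 0.0310. In each of these 5 pairs the cytosolic gene lay near 0 and had no call, and GUS1 and MSE1 both had none. In the opposite direction the largest mean difference was leucine, where CDC60 minus NAM2 was -0.0424 ± 0.128, a difference smaller than its spread. Threonine (THS1 and MST1) and tyrosine (TYS1 and MSY1) fell in both compartments, with mean differences of -0.0261 and 6.5e-05.

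**Figure D4:**
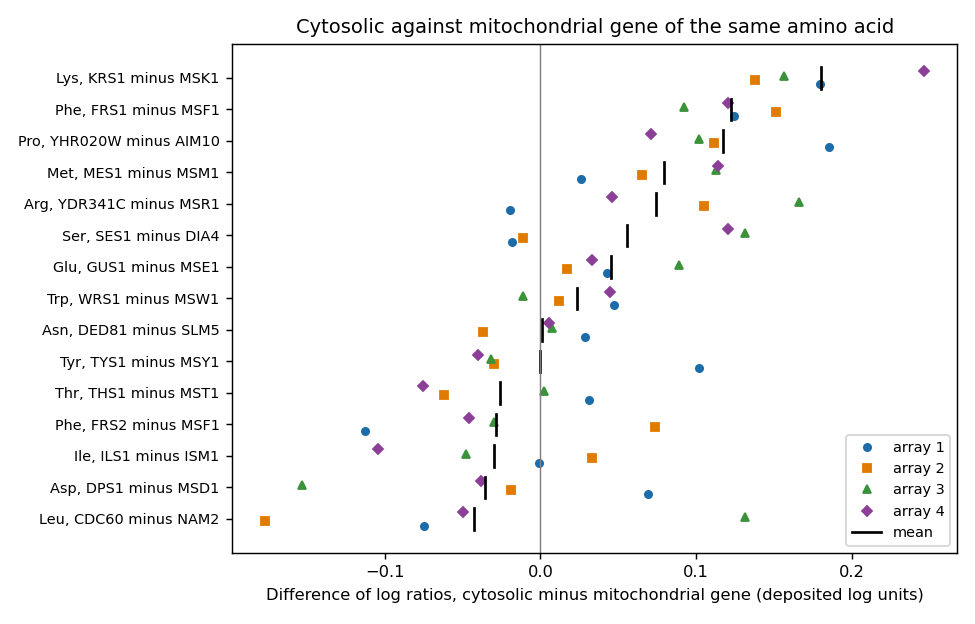
Difference of the log ratios of the cytosolic and the mitochondrial gene for the same amino acid (horizontal axis, cytosolic minus mitochondrial, deposited log units), 1 row per pair with each array as a symbol and the mean as a bar. Lysine, the FRS1 pair, proline, methionine and glutamate lie to the right of 0 on all 4 arrays, and no pair lies to the left of 0 on all 4.

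Division by catalytic class gave similar medians within the mitochondrion. Of the class I genes 6 of 10 cytosolic or shared and 4 of 7 mitochondrial ones fell, with medians of -0.0951 and -0.0871. Of the class II genes 5 of 12 cytosolic or shared and 4 of 7 mitochondrial ones fell, with medians of -0.0551 and -0.0931. The share that fell among all genes tested was 21.7%. ARC1 belongs to neither class. The SD between gene means was 0.0733 in the cytosolic class I and 0.0936 in the cytosolic class II genes, and the difference between the classes was not tested.

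Genes that take up charged tRNA, mature and carry tRNA or sense uncharged tRNA were read beside the synthetases from 4 short lists. Among 5 genes of the cytosolic elongation factor that delivers charged tRNA and of its exchange factor, 2 fell and 0 rose, with a median of -0.0665, where 21.7% of all genes fell. TEF4, for a gamma subunit of the exchange factor, had -0.209, -0.243, -0.250 and -0.238 on arrays 1 to 4, with a mean of -0.235 ± 0.0177 (SD, n = 4) and adjusted p = 0.00019 in limma. CAM1, for the other gamma subunit, had -0.00814, -0.136, -0.151 and -0.169, with a mean of -0.116 and adjusted p = 0.0171. TEF4 was thus low on every array, while CAM1 was near 0 on array 1. TEF1 and TEF2, whose protein product is the same elongation factor and whose probes may share signal, had 0.0476 and -0.0341 and did not pass.

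In the mitochondrion, 1 of 5 genes for amidation, formylation and delivery of tRNA fell and 1 rose, with a median of -0.0101, near the 21.7% and 22.5% of all genes tested. TUF1, for the elongation factor that carries charged tRNA to the mitochondrial ribosome, had -0.249, -0.129, -0.217 and -0.270 on arrays 1 to 4, with a mean of -0.216 ± 0.0622 (SD, n = 4) and adjusted p = 0.00088 in limma. GTF1, for a subunit of the enzyme that turns glutamate into glutamine on the mitochondrial tRNA, had 0.0481, 0.0973, 0.0839 and 0.0831, with a mean of 0.0781 and adjusted p = 0.0221. The genes of the other 2 subunits of that enzyme, HER2 at 0.0892 and PET112 at -0.0108, did not pass and each crossed 0 between arrays.

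Of 9 genes for tRNA ends, proofreading and export, 4 fell and 1 rose, with a median of -0.0259, where 44.2% of all genes passed in either direction. CEX1, whose protein receives exported tRNA at the nuclear pore, had -0.0974, -0.0795, -0.115 and -0.185 on arrays 1 to 4, with a mean of -0.119 and adjusted p = 0.0070 in limma. YNL040W fell to a mean of -0.0977 at adjusted p = 0.0095. Picked for naming once their values were known, the others that passed were the exportin gene MSN5 at -0.0950, the nuclear import receptor gene MTR10 at -0.0614 and, in the other direction, DTD1 at 0.0955, whose enzyme removes D-amino acids from tRNA.

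Of 6 genes in the sensing of uncharged tRNA, 3 rose and 2 fell, with a median of 0.0464, where 44.2% of all genes passed in either direction. GCN4 encodes the activator of amino acid synthesis genes, which is controlled mostly at its translation, and its mRNA had 0.320, 0.29992, 0.209 and 0.226 on arrays 1 to 4. The mean was 0.264 ± 0.0544 (SD, n = 4; 1.84-fold if base 10) at a limma adjusted p = 0.00029, while the kinase gene GCN2, whose protein binds uncharged tRNA, had -0.0183 and did not pass. GIR2, for a partner of Gcn1, rose by 0.127 at adjusted p = 0.0054. The other 3 that passed were picked for naming once their values were known. GCN20, for a partner of Gcn1 in activating Gcn2, rose by 0.111, GCN1 itself had -0.118 and YIH1, whose protein competes for Gcn1, had -0.122. Genes of proteins that activate the kinase thus stood on both sides of 0.

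**Figure D5:**
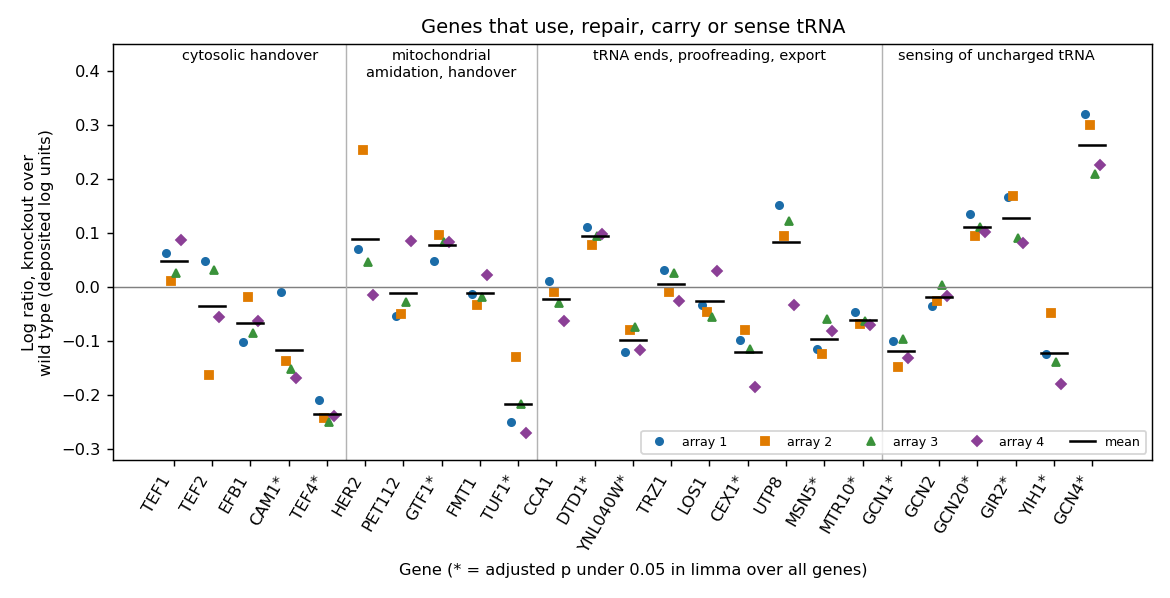
Log ratio on each array (vertical axis, knockout over wild type in deposited log units) of the genes that deliver, amidate, repair, carry or sense tRNA, in 4 lists, with the mean as a bar and a star for an adjusted p under 0.05 in limma. TEF4 at -0.235 and TUF1 at -0.216 are the lowest, and GCN4 at 0.264 the highest.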

How the data were processed

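The deposited table holds 1 log ratio per gene and array, taken here as log10 ratios from the values alone. The base, direction, scanner, background correction and normalization of these deposited values are not stated in the labels. Signal over background is unknown, so its effect on the ratios was not tested, and the small number of arrays also limits the precision. Of 6210 rows, 3 control rows were left out. Arrays 2 and 4 were multiplied by -1 to place LOC1 below 0. In R 4.3.3, limma 3.58.1 (lmFit, then eBayes) tested whether each gene's mean differed from 0 in either direction, for genes measured on at least 3 of the 4 arrays. Calls needed a Benjamini-Hochberg adjusted p under 0.05, and intervals are limma's at 95%. The script was tested on simulated data. All 37 genes had 4 values, and all 37 locus tags were found in a RefSeq table of the assembly R64, which gave the symbols. All 37 genes are named. Each other list contributes the 2 called genes that changed most, or, with fewer than 2 called, those of smallest p. TEF1, TEF2, HER2, PET112, GCN2 and the further called genes of these lists were added once their values were known. The genes and lists were chosen with earlier results of these data known. Alternatives were other directions, centring, normalization, variance prior, filter and subsets of arrays.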

Additional observations from a re-analysis of the deposited data

Results flagged for a closer look

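Of 41 sets of 4 array values examined (each of the 37 genes, the 2 compartment medians, their difference and LOC1), 2 had an array far from the other 3, and chance gives about 1 in 20. DED81 was at 0.0430 on array 1, while the other arrays lay between -0.0840 and -0.0660. GRS2 was at -0.155 on array 2, while the other arrays lay between -0.0282 and -0.00291. Neither gene passed the threshold with all 4 arrays.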

How the results depend on the processing

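Median centring, quantile normalization between arrays, a trended and robust prior and a filter for 4 values kept the calls of the 19 fallen genes; centring added HTS1. With the deposited direction as a term, DPS1 (adjusted p = 0.0668) and MSR1 (adjusted p = 0.0541) lost theirs in limma. With a replicate left out, the mitochondrial falls numbered 2 to 8 and the difference of medians ran from -0.00718 to 0.0287. Over these fits 4 genes near 0 changed sign: GUS1 ran from -0.0337 to 0.00508, MES1 from -0.0238 to 0.00041, YHR020W from -0.0316 to 0.00629 and YDR341C from -0.0270 to 0.00151. On arrays 1 and 2 alone, 554 genes fell and 631 rose in all, with 6 cytosolic or shared falls, a median of -0.0377 and 0 mitochondrial falls; GUS1, WRS1, YHR020W and DIA4 turned to 0.00835, 0.0051, 0.0306 and 0.0211, and on arrays 3 and 4 alone MES1 to 0.0031. Chosen after the data were seen, the 15 cytosolic genes with a mitochondrial partner gave 6 falls, a median of -0.0370 and a difference of 0.0502, and leaving out ARC1 and GRS2 gave a difference of -4.4e-05. Fewer arrays or genes enter these fits by construction.

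With arrays turned by the dye labels, 0 genes fell and 1 rose in limma, 72 had an unadjusted p under 0.05, and 0 synthetase genes of either compartment passed. The medians turned to 0.0133 for the cytosolic or shared and 0.0271 for the mitochondrial genes and their difference to -0.0139, and LOC1 to 0.0518. The sign reversed for ALA1 (0.0133), DED81 (0.0358), DPS1 (0.0535), GLN4 (0.011), GUS1 (0.0278), HTS1 (0.0323), FRS2 (0.0191), SES1 (-0.0200), TYS1 (0.0293), WRS1 (0.0421), YHR020W (0.0404), CRS1 (0.00899) and ARC1 (0.0583). It also reversed for MSE1 (0.0434), MSF1 (0.00994), MSK1 (0.0585), MSM1 (0.0228), MSR1 (0.0315), MSW1 (0.0356), DIA4 (0.0504), NAM2 (0.0797), AIM10 (0.00954) and SLM5 (0.0412). This setting averages arrays that oppose each other. No paired analysis was possible because each array is already a ratio of the 2 strains and there is 1 group of ratios.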

Other observations

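The cytosolic or shared enzymes for alanine, valine, leucine, threonine and isoleucine carry a separate editing domain, which removes wrong amino acids from the tRNA. All 5 of their cytosolic or shared genes fell, from -0.246 for ALA1 to -0.103 for ILS1, with VAS1, CDC60 and THS1 between them, against 11 of the 23 cytosolic or shared genes and 21.7% of all genes tested. Of the separate mitochondrial genes for these amino acids, NAM2 and MST1 fell, to -0.143 and -0.133, and ISM1 did not pass at -0.0730. FRS1, whose beta subunit holds the editing site of the phenylalanine enzyme, did not pass at 0.0291. This grouping was made after the values were seen, so its count is a description and was not tested.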
